A study of Mus musculus with 20 samples.

Results

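Midbrain neuron cultures that had received glial cell line-derived neurotrophic factor (GDNF) were compared with untreated cultures after 1 day in vitro, for every mature microRNA (miRNA) in the deposited count tables. The comparison held 10 of the 20 libraries of the study, 5 with GDNF and 5 controls, taken by the day and the treatment in their labels. Both groups were primary cultures of the ventral mesencephalon of C57Bl6/J mouse embryos at E12.5, freed of meninges and kept in a serum-free medium, Neurobasal-A, to which B27, glutamine and ascorbic acid had been added. The treated cultures had 10 ng/ml of GDNF in this medium. The controls are the libraries whose titles and source names do not mention GDNF, since the treatment text is the same on every sample. No allele or transgene is named in the labels. Total RNA was extracted and sequenced as small RNA with the TruSeq protocol. Whether the 5 libraries of a group came from different embryos, litters or dishes is not in the labels, so the p-values cover the spread among these libraries, which may be technical. The cultures were not sorted, and fewer cells of a type and less of a miRNA per cell cannot be told apart.

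GDNF is a secreted factor of the transforming growth factor-beta superfamily. It binds the co-receptor GFRalpha1 and signals through the receptor tyrosine kinase RET, and it is known for supporting the survival and neurite growth of midbrain dopaminergic neurons. A miRNA is cut from a hairpin precursor, which can give a 5p and a 3p arm, and it represses mRNAs that pair with its seed, the bases just after its first base. The miR-183 cluster, named in the title of the study, is best known from sensory organs, and it is encoded as 3 neighbouring hairpins on 1 strand of mouse chromosome 6. On genome build mm10 the hairpins were Mir183 at chr6:30169668-30169737, Mir96 at chr6:30169446-30169551 and Mir182 at chr6:30165918-30165992. All of them lie on the minus strand and outside annotated same-strand host genes.

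The sequences below are those of the miRNAs on which the results turn, written 5′ to 3′ from RefSeq (GRCm38.p6) with the seed, bases 2 to 8, in capitals. The first set is the miR-183 cluster, whose 3 main arms have similar but different seeds.
miR-182-5p: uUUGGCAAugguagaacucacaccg
miR-183-5p: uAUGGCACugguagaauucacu
miR-96-5p: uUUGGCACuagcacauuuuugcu
The second set holds other arms whose levels are described below, among them miR-146b-5p, which shares the seed of miR-146a-5p.
miR-1981-5p: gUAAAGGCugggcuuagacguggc
miR-379-5p: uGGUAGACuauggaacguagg
miR-146a-5p: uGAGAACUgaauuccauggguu
miR-146b-5p: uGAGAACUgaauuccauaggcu
miR-126a-3p: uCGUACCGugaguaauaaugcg
miR-471-5p: uACGUAGUauagugcuuuucac
miR-5126: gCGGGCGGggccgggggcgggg
miR-6239: uAGCGUUGgaucacucggug
The third set marks the libraries that stand apart from the rest. The arms miR-10a-5p and miR-10b-5p share a seed.
miR-10a-5p: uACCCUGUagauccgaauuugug
miR-10b-5p: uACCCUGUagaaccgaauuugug
miR-199b-3p/miR-199a-3p: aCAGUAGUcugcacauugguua
let-7b-5p: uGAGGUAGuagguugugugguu

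The libraries held 686793 to 1557885 miRNA reads in the control group and 420118 to 1761023 in the GDNF group. Levels are given as CPM (counts scaled to library size with TMM factors), so that 1 read was worth 0.552 to 2.44 CPM. Of the 1886 listed features, 1388 had reads in these libraries, and 432 passed the filter on low counts and were tested. Neuron-enriched miRNAs were found in every library: miR-124-3p, a neuron-specific miRNA, ranged from 1881 to 2563 CPM, and miR-9-5p, of neural progenitors and neurons, took 6.75% of the counts as a seed group. Markers of other cells were also present, with summed levels of 2140 to 3057 CPM for erythroid arms, 2736 to 4878 CPM for endothelial, smooth muscle and mesenchymal arms and 70.29 to 114.9 CPM for microglial and leukocyte arms.

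The largest differences among the libraries set those numbered 1 and 5 apart in both groups, and they did not follow GDNF. The first principal component held 31.8% of the variance and set both libraries numbered 1 at one end and both libraries numbered 5 at the other. In the libraries numbered 1, miR-199a-5p, a mesenchymal miRNA, was at 176.8 CPM in the control and 172.0 CPM with GDNF, against 11.05 to 26.87 CPM in the other 8 libraries. Its partner miR-199b-3p/miR-199a-3p was at 851.1 and 854.8 CPM there, against 130.0 to 161.0 CPM elsewhere. In the libraries numbered 5, miR-10a-5p, encoded in the Hoxb cluster, was at 261.1 CPM in the control and 322.5 CPM with GDNF, against 23.78 to 45.27 CPM in the other 8. For miR-10b-5p, encoded in the Hoxd cluster, the levels were 317.7 and 398.2 CPM, against 38.66 to 56.74 CPM. The level of let-7b-5p, of a family that accumulates as cells differentiate, was lowest in the libraries numbered 1, at 152.3 and 180.0 CPM, and highest in those numbered 5, at 995.2 and 903.9 CPM. The labels name no batch, litter or date for these numbers. For miRNAs of this kind the comparison was imprecise: the log2 fold change of miR-10a-5p with GDNF was 0.06 with an SE of 1.00.

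**Figure D1:**
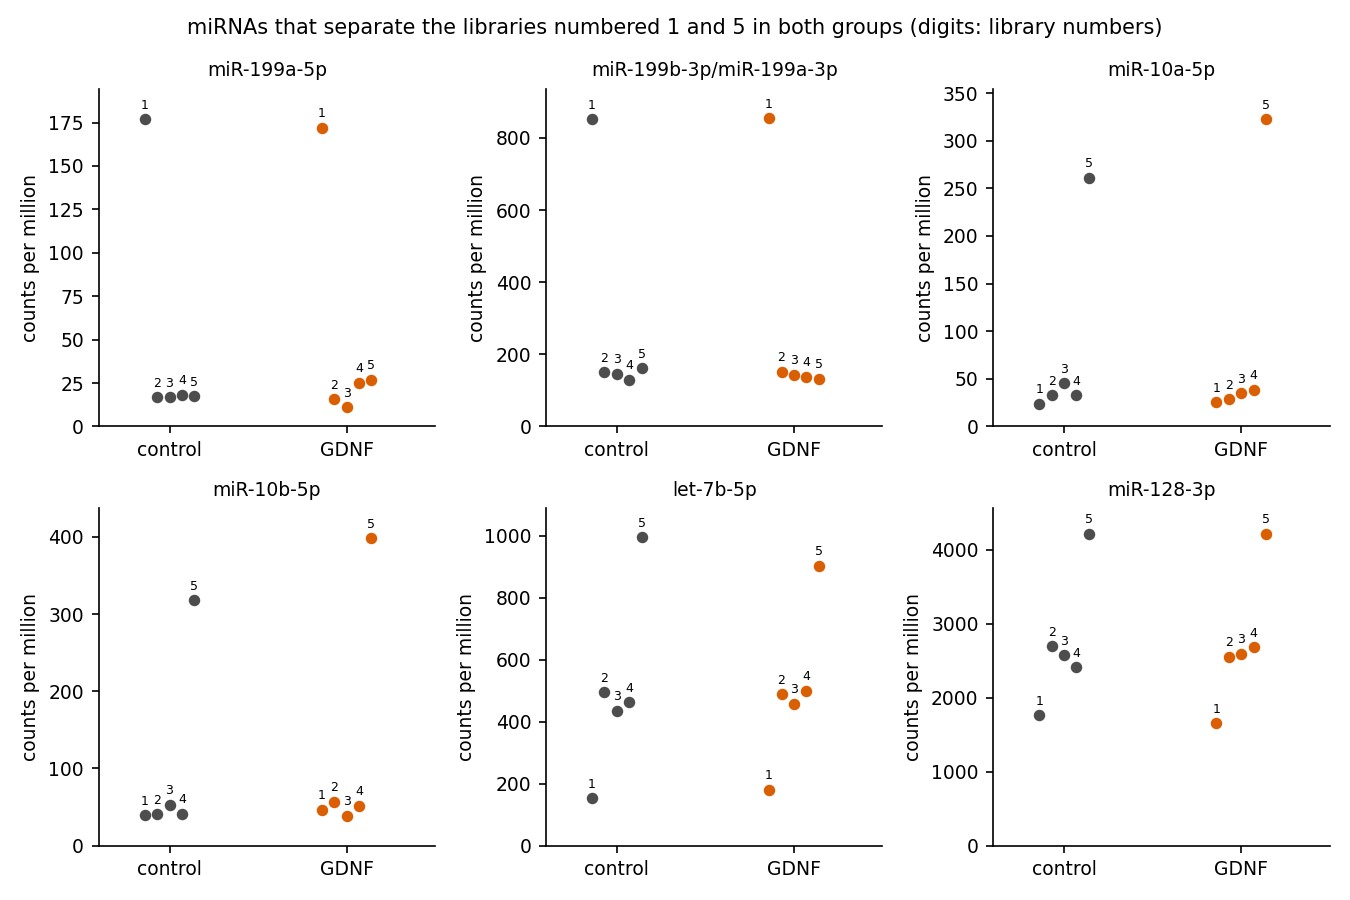
Level in CPM (vertical axis, from 0) of 6 miRNAs in each control library (grey) and GDNF library (orange) at day 1; digits are the library numbers. In both groups the library numbered 1 is alone at the top for miR-199a-5p (176.8 and 172.0 CPM) and the library numbered 5 is alone at the top for miR-10a-5p (261.1 and 322.5 CPM).

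No miRNA passed the test for GDNF against control at day 1. In edgeR's quasi-likelihood test 0 of 432 miRNAs (0%) had a Benjamini-Hochberg adjusted p below 0.05, and the smallest adjusted p was 0.998. Without adjustment, 12 miRNAs (2.78%) had a p below 0.05, of which 5 (1.16%) were higher and 7 (1.62%) were lower with GDNF. With no differences at all, a share of about 0.05 of the p-values would lie below 0.05 on average, more than was seen. The 12 are described below for their values and are not calls. DESeq2, limma voom and an exact permutation test per miRNA also called 0, with 12, 11 and 12 unadjusted p-values below 0.05. In all, 213 log2 fold changes were positive and 219 were negative, with a median of -0.00069 and a middle range of -0.10 to 0.09. The range over all 432 was -0.75 to 0.70, and 13 exceeded 0.5 in size. The tests above had no term for the library number. An edgeR fit with a term for each number called 4 of 432, though no label ties libraries numbered alike. In that fit the SE of miR-10a-5p was 0.158, against 1.00 without the term. Its calls are given with the other settings at the end.

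The intervals show how precisely each fold change was estimated. They are unadjusted and hold for 1 miRNA at a time, so they do not give the size of change that the adjusted test could call. For 270 of the 432 miRNAs (62.5%) the 95% interval of the fold change lay within 1.5-fold of no change, and for 407 (94.2%) it lay within 2-fold. Precision depended on the level: the interval lay within 1.5-fold for 33.2% of the 214 miRNAs below 100 CPM, for 88.6% of the 132 between 100 and 1000 CPM, and for 95.3% of the 86 above 1000 CPM.

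**Figure D2:**
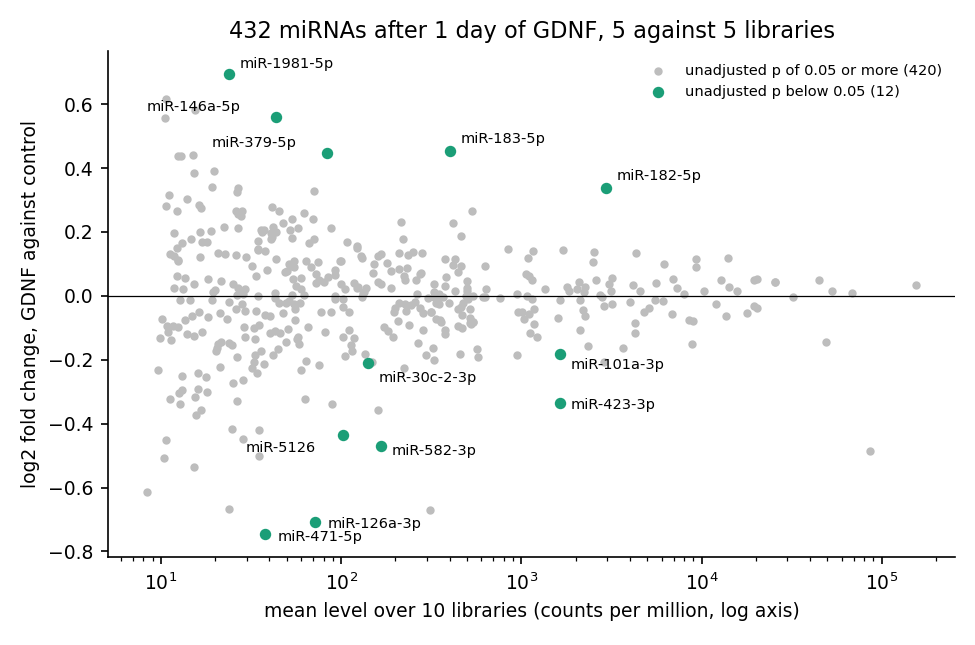
Mean level over the 10 libraries in CPM (horizontal log axis) against the log2 fold change of GDNF over control (vertical axis) for the 432 tested miRNAs; the 12 with an unadjusted edgeR p below 0.05 are green and named. The points lie between -0.75 and 0.70, and miR-182-5p is the most abundant of the named ones that were higher with GDNF.

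The 3 main arms of the miR-183 cluster had higher means in the GDNF libraries. None of them passed the adjusted test in the fit with group as the only term. The level of miR-182-5p was 2469, 2338, 2653, 2893 and 2693 CPM in controls 1 to 5 and 3303, 2689, 3278, 3180 and 4050 CPM in GDNF libraries 1 to 5. Of the GDNF libraries 4 lay above every control, and number 2 lay within the control range. The means were 2609 ± 213 CPM in controls and 3300 ± 488 CPM with GDNF (SD, n = 5 each), a fold change of 1.26. The log2 fold change was 0.34 (SE 0.102, 95% interval 0.12 to 0.56), with an unadjusted edgeR p of 0.005 and an adjusted p of 0.998. In the edgeR fit with a term for each library number miR-182-5p was at 0.33 (SE 0.0707, adjusted p 0.0163) and was called. There miR-183-5p had an adjusted p of 0.062 and miR-96-5p of 0.717.

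The second main arm, miR-183-5p, was less abundant, and its difference was of similar size. Its levels were 325.3, 329.2, 364.7, 296.4 and 371.4 CPM in the controls and 363.9, 416.9, 388.3, 483.3 and 671.8 CPM with GDNF. GDNF library 1 was the one below the highest control, and GDNF library 5 was far above the rest. The means were 337.4 ± 30.8 and 464.8 ± 124 CPM (SD, n = 5 each), and the log2 fold change was 0.45 (SE 0.149, 95% interval 0.13 to 0.77; edgeR unadjusted p 0.00901, adjusted p 0.998). Without GDNF library 5 it was 0.28, which is over 1.5 times smaller.

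The third main arm, miR-96-5p, was close to the lowest level that could be tested. It was at 10.93, 13.35, 10.35, 14.58 and 8.704 CPM in the controls and at 19.85, 13.98, 11.60, 17.80 and 34.20 CPM with GDNF. The groups overlapped, and the values rested on 144 reads over the 10 libraries. The log2 fold change was 0.58 (SE 0.296), and its 95% interval of -0.05 to 1.22 included no change. Without GDNF library 5 it was 0.37. Over the cluster, 3 of 3 tested arms were positive with a median of 0.45, against 213 of 432 and -0.00069 over all miRNAs, and 0 were called. The arms are cotranscribed and the title of the study names the cluster. They are therefore neither 3 separate observations nor a list independent of these data. The passenger arms miR-183-3p and miR-182-3p had 89 and 20 reads in all and were not tested. The few reads of miR-182-3p lay the other way, at 1.78 to 5.17 CPM in controls and 0 to 1.87 CPM with GDNF, and miR-96-3p had 0 reads in all 10 libraries.

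**Figure D3:**
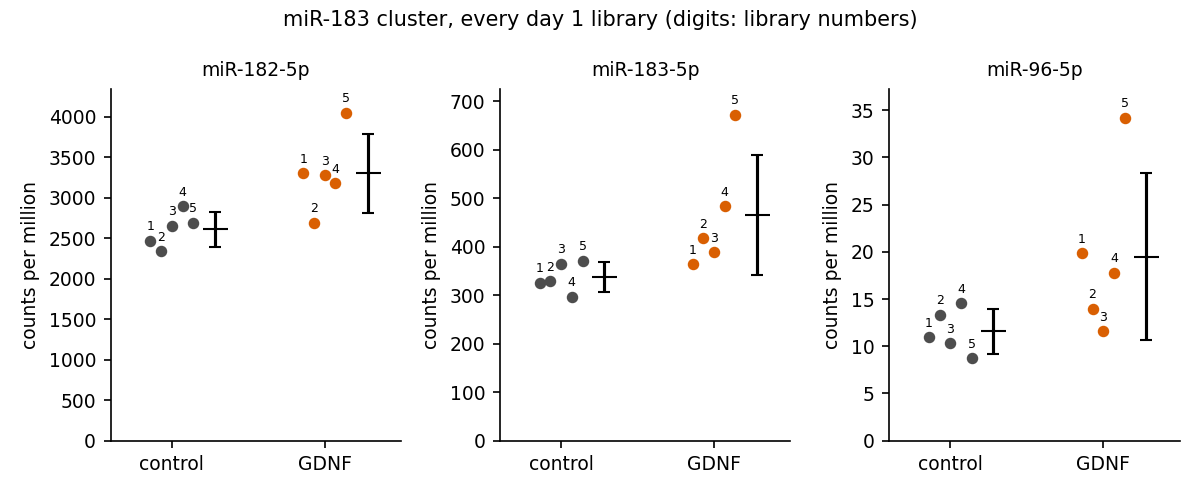
Levels of the 3 main arms of the miR-183 cluster in CPM (vertical axes, from 0) in each control (grey) and GDNF (orange) library at day 1; digits are library numbers, and bars show the mean and SD of 5 libraries. For miR-182-5p 4 of the 5 GDNF libraries lie above the highest control (2893 CPM), and GDNF library 5 is the highest for all 3 arms.

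When the split between the libraries numbered 1, those numbered 5 and the rest was entered as a term in the fit, 5 miRNAs (1.16%) were called, 2 higher and 3 lower. This term was chosen after the data were seen. With it, the log2 fold change of miR-183-5p was 0.42 (SE 0.0954) and that of miR-182-5p was 0.33 (SE 0.0762), each with an edgeR adjusted p of 0.0251. On the lower side were miR-471-5p at -0.83 (adjusted p 0.0251), miR-126a-3p at -0.61 (adjusted p 0.0387) and miR-5126 at -0.47 (adjusted p 0.0415). For both cluster arms the log2 fold change was within 0.05 of its value without the term, and the SE was smaller. With the 4 libraries numbered 1 and 5 left out, 0 of 450 miRNAs were called and 16 had an unadjusted p below 0.05. In the remaining 6 libraries miR-182-5p was at 0.22, miR-183-5p at 0.38 and miR-96-5p at 0.13.

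The other miRNAs that were higher with GDNF at an unadjusted edgeR p below 0.05 were less abundant than miR-182-5p. The most positive value of all belonged to miR-1981-5p, from an intron of Marc2 on chromosome 1. It was at 14.14, 17.80, 12.93, 25.51 and 21.76 CPM in the controls and at 39.70, 31.25, 23.20, 29.97 and 21.99 CPM with GDNF. Of the GDNF libraries 3 lay above all controls, and the log2 fold change was 0.70 (SE 0.239, edgeR unadjusted p 0.0115). For miR-379-5p, a miRNA of the imprinted Dlk1-Dio3 array on chromosome 12, it was 0.45 (SE 0.201), and 0.26 without GDNF library 1, which was highest at 145.6 CPM. For miR-146a-5p, an inflammation-induced miRNA that acts on NF-kB signalling, it was 0.56 (SE 0.255), and 0.36 without GDNF library 1, again the highest at 79.40 CPM. Its seed partner miR-146b-5p was at 482.9 ± 65.6 CPM in controls and 576.8 ± 116 CPM with GDNF (SD, n = 5 each), a log2 fold change of 0.27 (SE 0.141). Among the values with an unadjusted p of 0.05 or more, miR-361-5p was at 0.19, miR-192-5p at 0.14 and miR-184-3p, near 10 CPM, at 0.62.

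The groups did not overlap for a single miRNA. In miR-497a-5p, of the miR-15/16 seed family, the controls lay between 34.92 and 46.42 CPM and the GDNF libraries between 46.94 and 51.30 CPM. This 1 miRNA was 0.231% of those tested, and no miRNA (0%) had all GDNF libraries below all controls. Its log2 fold change was 0.26 (SE 0.147), with an unadjusted edgeR p of 0.0941, and an exact two-sided permutation p of 0.00794, the smallest that this design allows. The adjusted permutation p was 1.

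Among the miRNAs that were lower with GDNF, miR-126a-3p is the endothelial miRNA encoded within Egfl7. It was at 140.8, 48.05, 69.84, 65.60 and 117.5 CPM in the controls and at 79.40, 49.34, 37.56, 50.58 and 61.07 CPM with GDNF. Controls 1 and 5 were the highest of the 10 libraries, and 1 GDNF library lay below all controls. The log2 fold change was -0.71 (SE 0.286, edgeR unadjusted p 0.0277), and -0.45 without control 1. Of the 6 tested endothelial, smooth muscle and mesenchymal arms, miR-126a-3p among them, 5 were negative, and the median of the 6 was -0.17. Over all miRNAs 219 of 432 were negative, with a median of -0.00069. The 5 include miR-199b-3p/miR-199a-3p at -0.05 and miR-199a-5p at -0.14, which were far higher in the libraries numbered 1. Each of these arms changed sign with 1 library left out, so the count of 5 does not rest on stable signs. The most abundant of the 6, miR-143-3p, was at -0.21 (SE 0.105). The summed level of all arms of this list, miR-126a-3p included, was 2769 to 4878 CPM in controls and 2736 to 4195 CPM with GDNF.

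The arms miR-101a-3p, miR-30c-2-3p, miR-423-3p and miR-582-3p also had an unadjusted edgeR p below 0.05, with log2 fold changes from -0.18 to -0.47. The level of miR-101a-3p, known to target the polycomb enzyme Ezh2, was 1736, 1801, 1584, 1867 and 1732 CPM in controls and 1370, 1475, 1687, 1572 and 1581 CPM with GDNF. In 4 of 5 GDNF libraries it lay below all controls, and the log2 fold change was -0.18 (SE 0.0801). The arm miR-30c-2-3p had the same arrangement, with 4 of 5 GDNF libraries below all controls and a log2 fold change of -0.21 (SE 0.0978). For miR-423-3p it was -0.34 (SE 0.155), where controls 1 and 2 were the highest at 2125 and 2523 CPM, and -0.18 without control 2. For miR-582-3p, from an intron of Pde4d, it was -0.47 (SE 0.205), again with controls 1 and 2 highest at 256.5 and 256.3 CPM. Its partner arm miR-582-5p was at -0.07. Below these came let-7f-2-3p at -0.42, miR-3081-3p at -0.45 and the hypoxia-responsive miR-210-3p at -0.23, each with an unadjusted p of 0.05 or more. Without control 1 miR-210-3p was at -0.12.

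Levels of miR-471-5p, miR-1957a and miR-6239 went with the share of reads that fell outside miRNAs, over both groups together. The share was 20.63, 19.72, 21.61, 22.57 and 18.87% in the controls and 17.54, 19.99, 19.91, 20.54 and 16.53% with GDNF. Its means of 20.68 ± 1.47% and 18.90 ± 1.76% (SD, n = 5 each) had an exact two-sided permutation p of 0.143, adjusted to 0.369 over 3 library measures. The level of miR-471-5p, from an X-linked miRNA gene, was 48.85, 43.60, 62.08, 68.03 and 20.31 CPM in controls and 17.20, 28.78, 34.24, 44.02 and 12.21 CPM with GDNF. Control 5 and GDNF libraries 1 and 5 were lowest, as they were for the share. The libraries numbered 2 had similar shares, 19.72 and 19.99%, while miR-471-5p was at 43.60 CPM in the control and 28.78 CPM with GDNF. In every other number both the share and miR-471-5p were lower in the GDNF library. The log2 fold change was -0.75 (SE 0.325, edgeR unadjusted p 0.0362). For miR-1957a, at 203.1 to 556.4 CPM in controls and 134.4 to 391.5 CPM with GDNF, it was -0.67 (SE 0.333).

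Over the 10 libraries the log2 level of miR-471-5p followed the share of reads outside miRNAs closely (Pearson's r 0.962, Spearman's rho 0.952). The two-sided permutation p-values were 1e-05, the smallest that 100000 resamples can give, and 7e-05. Among 432 such relations computed, 4 had an adjusted Pearson p below 0.05, those of miR-471-5p (0.00432), miR-1957a (0.00648), miR-874-3p (0.0389, negative) and miR-6239 (0.0389). For Spearman's rho the adjusted p was 0.0302 for miR-471-5p and 0.239 for the other three. For miR-1957a r was 0.952 and rho 0.891 (permutation p 3e-05 and 0.00126), and for miR-6239 r was 0.896 and rho 0.855 (permutation p 0.00036 and 0.00295). Without the 2 libraries farthest from the median share r was 0.930, 0.906 and 0.731 in that order. With 5 libraries in a group no correlation within groups is given. Among the controls miR-471-5p and the share had the same order of libraries, and among the GDNF libraries the order differed only in numbers 2 and 3. For the cluster arms the relation was weaker, with r of -0.578 (rho -0.479, permutation p 0.0802 and 0.165) for miR-182-5p and -0.641 (rho -0.455, permutation p 0.0487 and 0.192) for miR-183-5p. The latter rested on the 2 farthest libraries, since r was 0.116 without them.

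With the share as a covariate in the fit, chosen after the data were seen, 0 of 432 miRNAs (0%) were called and 12 had an unadjusted edgeR p below 0.05. The log2 fold change became -0.18 for miR-471-5p, -0.09 for miR-1957a, 0.0066 for miR-6239 and -0.19 for miR-5126. It was 0.27 for miR-182-5p, 0.31 for miR-183-5p and 0.69 for miR-1981-5p, and it was -0.98 for miR-126a-3p. Of these, miR-6239 weighs most in the libraries. Whether the reads counted as miR-6239, miR-471-5p and miR-1957a are mature miRNAs or pieces of other small RNAs was not tested, and the shares below count them as miRNAs. It took 10.25, 10.19, 10.43, 13.45 and 5.321% of the miRNA counts in controls and 6.820, 6.957, 8.161, 10.97 and 3.556% with GDNF. The log2 fold change of miR-6239 was -0.49 with a 95% interval of -1.17 to 0.20. In an edgeR fit with a term for each library number it was -0.51 (adjusted p 1.39e-05). That fit also called miR-1957a (-0.71, adjusted p 3.36e-05), miR-471-5p (-0.84, adjusted p 0.0163) and miR-182-5p (0.33, adjusted p 0.0163). No label ties libraries numbered alike. The share of counts in the 5 most abundant miRNAs was 42.09 ± 2.48% in controls and 40.28 ± 2.34% with GDNF (SD, n = 5 each; exact permutation p 0.246), a difference of -1.81 percentage points that became -0.015 with miR-6239 left out.

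**Figure D4:**
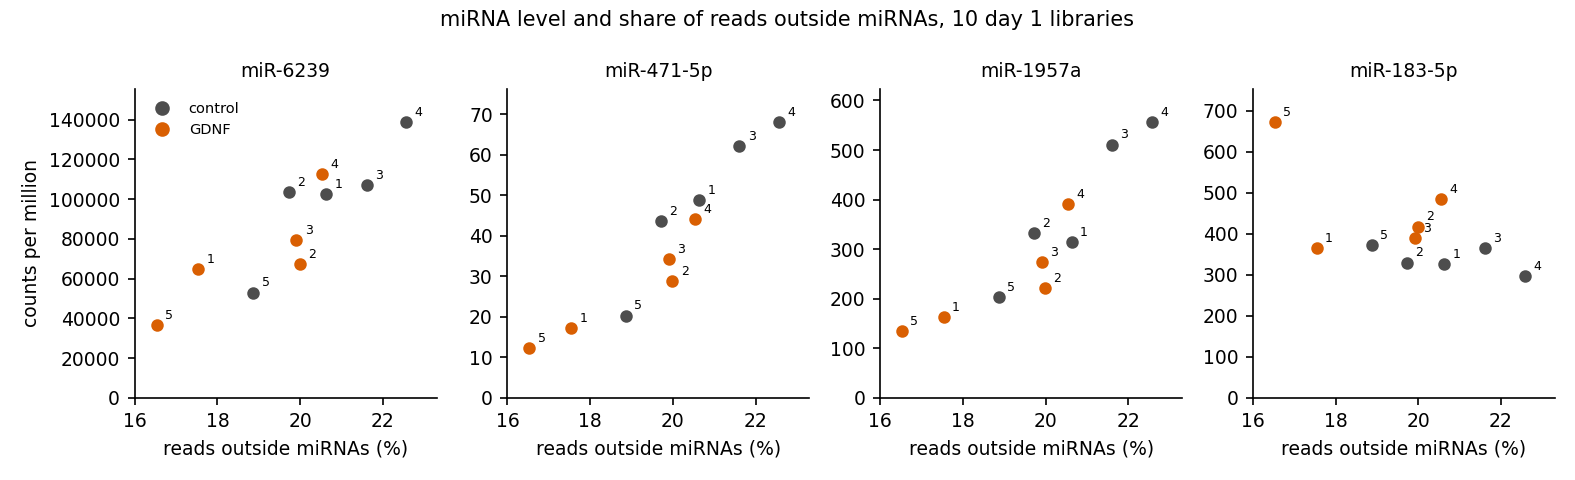
Share of reads outside miRNAs in percent (horizontal axis, starting at 16%) against the level of 4 miRNAs in CPM (vertical axes, from 0) in the 5 control (grey) and 5 GDNF (orange) libraries; digits are library numbers. The points of miR-471-5p follow the share closely (r of 0.962), while miR-183-5p is highest in GDNF library 5, which has the lowest share (16.53%).

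Besides miR-6239, the most abundant miRNAs differed little. The leading miRNA was miR-181a-5p at 153700 ± 11600 CPM in controls and 157400 ± 17800 CPM with GDNF (SD, n = 5 each), a log2 fold change of 0.03 with a 95% interval of -0.17 to 0.24. With its seed relatives it took 20.5% of the counts. The values were 0.0082 for miR-9-5p, 0.01 for miR-92b-3p, -0.14 for miR-92a-3p, 0.05 for miR-99b-5p, -0.0022 for miR-181b-5p, 0.04 for miR-26a-5p, 0.04 for miR-127-3p and 0.05 for miR-298-5p. Several of these values, all close to 0, changed sign under other settings. Summed by seed, 0 of 318 seed groups were called, 10 had an unadjusted edgeR p below 0.05, and 198 had intervals within 1.5-fold.

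Neuron-enriched miRNAs had similar mean levels in both groups. Of 10 tested arms 9 were positive with a median of 0.05, against 213 of 432 and -0.00069 over all miRNAs. Among the 10 arms 0 were called, and 9 had an interval within 1.5-fold. The level of miR-124-3p was 2222 ± 238 CPM in controls and 2264 ± 182 CPM with GDNF (SD, n = 5 each), with a 95% interval of -0.17 to 0.22 on the log2 scale. The log2 fold change was 0.02 for miR-153-3p, 0.06 for miR-218-5p and 0.0035 for miR-128-3p, a miRNA of maturing neurons. The 95% interval of miR-128-3p was wide, from -0.59 to 0.60, and its level ranged from 1655 to 4213 CPM with the library number. Among 8 arms linked to midbrain dopaminergic neurons 4 were positive and 4 negative. In that list miR-135a-5p, which acts on Lmx1b and Wnt signalling in midbrain progenitors, was at 0.07, miR-135a-1-3p at 0.15, and miR-7a-5p, known to repress alpha-synuclein, at 0.33 (SE 0.199), and 0.18 without GDNF library 1.

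Of 10 arms known to respond to trophic factors, ERK or CREB, 3 were positive and 7 negative, with a median of -0.05 and 0 called. The CREB-induced miR-132-3p was at 183.1 CPM in controls and 195.6 CPM with GDNF, a log2 fold change of 0.08. The receptor tyrosine kinase-responsive miR-21a-5p was at -0.0028, miR-221-3p at -0.02, miR-222-3p at -0.13, and miR-134-5p, a dendritic miRNA, at 0.10. The interval lay within 1.5-fold for 5 of the 10.

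The families tied to growth and differentiation showed no call in any list. Of 22 arms of miR-17-92 and its paralogues 9 were positive, with a median of -0.0077, and miR-25-3p was at 0.09. Of 15 let-7 and miR-98 arms 2 were positive and 13 negative, with a median of -0.06, and let-7c-5p and let-7f-5p were at -0.03 and -0.15. With library totals in place of TMM the median of all miRNAs moved from -0.00069 to 0.04, a shift close to the size of the let-7 median. Of 11 arms of miR-99/100 and miR-125 8 were positive with a median of 0.05, among them miR-125b-5p at 0.05. Of 68 imprinted Dlk1-Dio3 arms 38 were positive with a median of 0.01, and miR-541-5p was at 0.02. The remaining small lists gave 0.25 for miR-92b-5p, -0.008 for miR-9-3p, 0.14 for miR-302b-3p, -0.30 for miR-302d-3p, 0.17 for miR-10b-5p and 0.07 for miR-375-3p. With 1 library left out, miR-92b-5p ran from 0.077 (without control 5) to 0.39 (without control 2), miR-302d-3p was at -0.01 without control 1, and miR-10b-5p ran from -0.999 to 1.28 (without GDNF library 5 and without control 5).

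**Figure D5:**
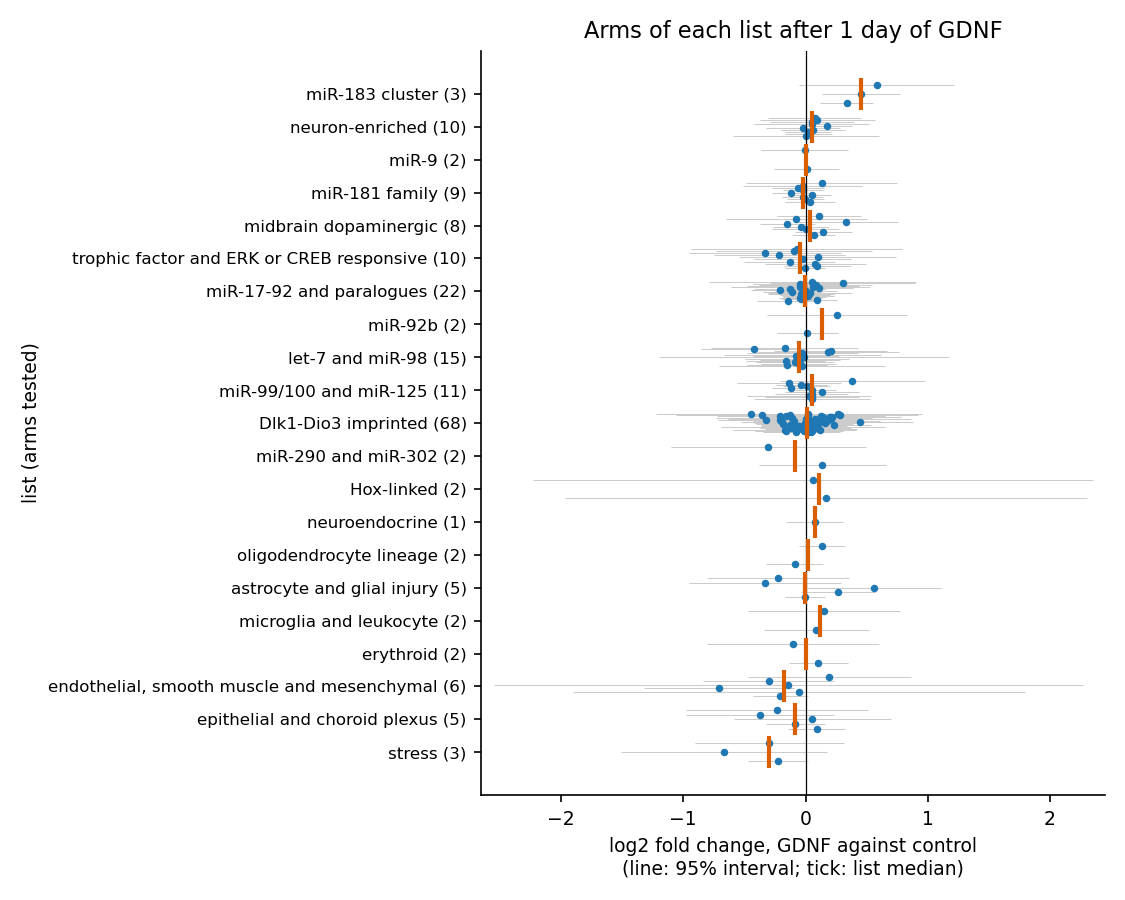
Log2 fold change of GDNF over control (horizontal axis) for each tested arm of the 21 lists (blue points, with 95% intervals as grey lines and the list median as an orange tick). The median of the miR-183 cluster (3 arms, 0.45) lies farthest from 0, and 0 arms of any list were called. These 3 arms are cotranscribed and the title of the study names their cluster, so it is no independent list.

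Of the markers of other cell types 0 arms were called. The oligodendrocyte-lineage arms miR-219a-2-3p and miR-219a-1-3p were at -0.09 and 0.13. Leukocyte arms miR-142a-5p and miR-155-5p were at 0.09 and 0.15 (0.042 for miR-155-5p without GDNF library 5), with summed levels of 70.29 to 113.8 CPM in controls and 78.17 to 114.9 CPM with GDNF. The red-cell arms miR-486b-5p/miR-486a-5p and miR-451a were at 0.11 and -0.10, and the choroid plexus and ciliated-cell arms miR-204-5p and miR-34c-5p at 0.09 and -0.08. The mesenchymal arm miR-199b-3p/miR-199a-3p was at -0.05. In the stress list 3 of 3 arms were negative with a median of -0.30, against 219 of 432 and -0.00069 over all miRNAs. They were miR-210-5p at -0.67 (SE 0.393), miR-210-3p at -0.23 and miR-34a-5p at -0.30, and 0 were called. The miR-210 arms come from 1 hairpin, so the 3 arms are not separate observations. With 1 library left out the values ran from -1.01 (without GDNF library 1) to -0.39 (without control 1) for miR-210-5p and from -0.50 (without GDNF library 4) to -0.17 (without GDNF library 1) for miR-34a-5p. The part of any of these cells in the differences above was not tested.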

How the data were processed

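The deposited files hold raw read counts per mature miRNA, 1 table per library. The submitters' processing notes name cutadapt 1.8.1, STAR 2.4.1d and HTSeq with build mm10, and the miRNA annotation and strand setting are not given in the sources used here. Each of the authors' count tables lists 1886 features, 12 of them joined names of miRNAs kept as 1 feature, and 5 tally lines, of which the reads without a feature (16.53 to 22.57% of reads) were used only as that share. Counts of the 10 day 1 libraries were filtered with filterByExpr, scaled with TMM and fitted with edgeR 4.0.16 in R 4.3.3 (glmQLFit, robust, group as the only term). The tested miRNAs held at least 99.8% of counts, and 956 with reads were not tested. Calls required a Benjamini-Hochberg adjusted p below 0.05. Intervals of 95% come from the fitted SE. No 2 libraries of a group agreed within sampling noise (lowest chi-square per degree of freedom 10.3). On simulated counts the test called 23.6% of 1.25-fold, 59.2% of 1.5-fold and 90.8% of 2-fold changes. The simulated libraries lacked the spread shared by library number, and many miRNAs were changed at once, so these shares need not hold here. The 3 library measures were compared by exact permutation. Alternatives used DESeq2 1.42.0, limma 3.58.1, other scalings and filters, and left-out libraries.

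Named miRNAs are the miR-183 cluster, the 10 smallest p-values in each direction at a mean of at least 10 CPM, the 10 most abundant, the 2 leading arms of each list and any with groups that do not overlap. Chosen after their values were seen were miR-1957a, miR-199a-5p, let-7b-5p, miR-132-3p, miR-221-3p, miR-222-3p, miR-7a-5p, miR-153-3p, miR-218-5p, miR-582-5p, miR-34a-5p and miR-874-3p. The 21 lists and the members were chosen with earlier results of these data known. RefSeq sequences matched 1608 of 1886 features. Hairpin hosts are from GENCODE vM21.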

Additional observations from a re-analysis of the deposited data

Results flagged for a closer look

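Each named miRNA and each library measure was examined in either group for a highest or lowest library farther from the others than Dixon's 95% limit, which chance passes in about 1 in 20 sets of 5 libraries. Among the 126 sets fixed by the naming rule 9 passed it, 3 in libraries numbered 1 and 6 in libraries numbered 5. A further 4, those of miR-199a-5p, miR-218-5p and miR-7a-5p, came from 24 sets of miRNAs named after their values were seen and are given as values only. In the libraries numbered 1, miR-199a-5p was flagged in both groups (176.8 CPM in the control, 172.0 CPM with GDNF), as was miR-199b-3p/miR-199a-3p (851.1 and 854.8 CPM). In GDNF library 1, miR-298-5p was at 25170 CPM against 19020 to 20250 CPM in the other 4. In the libraries numbered 5, miR-10a-5p (261.1 and 322.5 CPM) and miR-10b-5p (317.7 and 398.2 CPM) were flagged in both groups. In GDNF library 5, miR-204-5p was at 823.3 CPM against 570.7 to 636.5 CPM, and miR-302d-3p had 0 CPM, where 3 reads would have been 7.33 CPM, against 12.70 to 15.88 CPM. In control library 2, miR-218-5p was at 905.8 CPM against 1114 to 1132 CPM, and miR-7a-5p at 53.39 CPM against 63.83 to 68.03 CPM.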

How the results depend on the processing

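The count of 0 called miRNAs held for 22 of 24 alternatives. The exceptions were the replicate block (a term for each library number), with 4 called, and the term for the libraries that stand apart, with 5 called. Leaving out 1 library at a time gave 0 called throughout, with 5 to 18 unadjusted p-values below 0.05. With no filter, 71 of 1388 miRNAs had an unadjusted p below 0.05 and the smallest adjusted p was 0.153. Libraries numbered alike were not treated as pairs, since no label ties them. Their deviations correlated at 0.634, 0.0727, 0.122, 0.102 and 0.395 for numbers 1 to 5, all positive. The libraries numbered 1 and 5 alone correlated best with their own number. A fit with group as the only term keeps what a number shares in its spread. The SE of miR-182-5p was 0.102 in that fit and 0.0707 with the replicate block. With the replicate block, the 4 calls were miR-6239 (-0.51, adjusted p 1.39e-05), miR-1957a (-0.71, 3.36e-05), miR-182-5p (0.33, 0.0163) and miR-471-5p (-0.84, 0.0163), and 29 unadjusted p-values were below 0.05. Total counts differed by 28210 reads, by -153400 to 181800 with 1 library left out, and by -0.053 on the log2 scale. Depth limits the arms under 100 CPM, where 3 reads were worth 1.66 to 7.33 CPM.

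Of 72 named and tested miRNAs 37 kept their sign under every alternative, 6 changed it only when 1 library was left out and 29 under others; the cause was not tested. Values with a changed sign, on the log2 scale, follow. With the replicate block, these were miR-99b-5p -0.016, miR-9-3p 0.0096, miR-21a-5p 0.0001, let-7b-5p 0.044 and miR-199a-5p 0.020. With the share of reads outside miRNAs as a covariate, these were miR-6239 0.0066, miR-9-5p -0.024, miR-99b-5p -0.14, miR-181b-5p 0.017, miR-26a-5p -0.042, miR-127-3p -0.019, miR-128-3p -0.21, miR-124-3p -0.032, miR-21a-5p 0.016, miR-125b-5p -0.22, miR-10b-5p -1.09, miR-10a-5p -1.27, miR-375-3p -0.011, miR-219a-2-3p 0.020, miR-451a 0.16, miR-204-5p -0.053, miR-132-3p -0.15, miR-221-3p 0.14, miR-153-3p -0.012 and miR-874-3p -0.22. With no filter, these were miR-9-5p -0.0040 and miR-128-3p -0.011. With a filter at a mean of 10 CPM, these were miR-9-5p -0.0049 and miR-128-3p -0.0095. Without the 4 libraries numbered 1 and 5, these were miR-9-5p -0.015, miR-92b-3p -0.0053, miR-99b-5p -0.024, miR-181b-5p 0.0040, miR-298-5p -0.046, miR-124-3p -0.024, miR-21a-5p 0.015, let-7c-5p 0.026, miR-125b-5p -0.095, miR-302d-3p 0.014, miR-10a-5p -0.10, miR-155-5p -0.0041, miR-199b-3p/miR-199a-3p 0.021 and let-7b-5p 0.053. In limma voom, these were miR-99b-5p -0.026, miR-128-3p -0.0014, miR-9-3p 0.0097, miR-21a-5p 0.0042, miR-10a-5p -0.096, miR-221-3p 0.024 and let-7b-5p 0.070. As mean log2 differences, these were miR-99b-5p -0.017, miR-9-3p 0.012, let-7b-5p 0.053 and miR-199a-5p 0.068. With library totals only, these were miR-181b-5p 0.036, miR-9-3p 0.026, miR-21a-5p 0.038, miR-199b-3p/miR-199a-3p 0.0011, miR-221-3p 0.023 and let-7b-5p 0.012. In a fit of all 20 libraries, these were miR-181b-5p 0.023, miR-9-3p 0.017, miR-21a-5p 0.022, miR-221-3p 0.0006 and let-7b-5p 0.015. Without miR-6239, these were miR-128-3p -0.0070. With the term for the libraries that stand apart, these were miR-128-3p -0.0005, miR-9-3p 0.0084, let-7b-5p 0.042 and miR-199a-5p 0.0044. In DESeq2, these were let-7b-5p 0.0016. With 1 library left out at a time the ranges that crossed 0 were let-7b-5p -0.32 to 0.37, let-7c-5p -0.20 to 0.15, miR-10a-5p -1.26 to 1.23, miR-10b-5p -0.999 to 1.28, miR-124-3p -0.037 to 0.058, miR-125b-5p -0.15 to 0.17, miR-127-3p -0.026 to 0.13, miR-128-3p -0.22 to 0.20, miR-132-3p -0.12 to 0.20, miR-142a-5p -0.011 to 0.25, miR-153-3p -0.042 to 0.056, miR-181a-5p -0.036 to 0.088, miR-181b-5p -0.033 to 0.016, miR-199a-5p -1.56 to 1.44, miR-199b-3p/miR-199a-3p -1.05 to 0.94, miR-204-5p -0.017 to 0.13, miR-218-5p -0.034 to 0.13, miR-21a-5p -0.027 to 0.015, miR-221-3p -0.13 to 0.097, miR-222-3p -0.25 to 0.023, miR-26a-5p -0.0088 to 0.082, miR-298-5p -0.027 to 0.091, miR-302b-3p -0.0030 to 0.24, miR-375-3p -0.013 to 0.12, miR-451a -0.28 to 0.066, miR-541-5p -0.061 to 0.16, miR-874-3p -0.0071 to 0.22, miR-9-3p -0.14 to 0.11, miR-9-5p -0.089 to 0.064, miR-92b-3p -0.072 to 0.10 and miR-99b-5p -0.15 to 0.22.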
